A study of Mus musculus with 15 samples.

Results

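The genes described here are those of the mouse major histocompatibility complex (MHC, called H2 in the mouse) and of antigen presentation, measured in liver RNA. They were taken by name: every row whose symbol begins with H2-, plus B2m, Tap1, Tap2, Tapbp, Psmb8, Psmb9, Psmb10, Cd74, Ciita and Nlrc5. This gave 55 of the 54532 rows of the expression table. Of these 55, 30 reached at least 1 FPKM (fragment numbers corrected for the length of the gene and the depth of the library) in at least 3 of the 15 libraries and were tested, and 25 did not. The 30 comprised both classical class I heavy chain rows, 13 of 30 other class I rows, all 8 rows of the class I light chain and peptide supply, and 7 of 14 class II rows. The remaining row, H2-Ke6, is named for its place in the complex and stayed below the minimum.

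Livers came from C57 and BALBc mice at postnatal day 12 in a model of oxygen-induced retinopathy, in which the series describes one strain as resistant and the other as susceptible. The 4 C57 normoxia and 3 BALBc normoxia libraries were from mice kept in room air throughout. The 4 C57 hyperoxia and 4 BALBc hyperoxia libraries were from mice moved on day 7 from room air to 75% oxygen, where they stayed until day 12. The labels name no mutation or transgene, and they give neither the substrain nor the number of animals behind a library. Since nothing says that replicates are separate animals, a p-value measures only the spread between these libraries.

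Class I molecules are a membrane heavy chain bound to the light chain beta-2 microglobulin, and they show peptides from inside the cell to CD8 T cells. The peptides are cut by the immunoproteasome, carried into the endoplasmic reticulum by the TAP transporter and loaded with the help of tapasin. Class II molecules are pairs of an alpha and a beta chain that show peptides from endocytosed proteins to CD4 T cells. They are made mainly by B cells, dendritic cells and macrophages, and in liver hepatocytes normally carry class I and little class II. The H2 genes are among the most polymorphic of the mouse. C57 mice carry the H2-b haplotype and BALBc mice the H2-d haplotype. The submitters' processing notes name the GRCm38 genome, which is of C57BL/6J and therefore H2-b. A strain difference in level and a difference in how H2-d reads map to H2-b genes cannot be told apart in these data. Mapping could lower or raise a BALBc value, and this holds for every strain difference in an H2 gene below. The H2-d haplotype also carries a class I gene, H2-L, that H2-b lacks, and no row of the table bears that symbol.

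The sequences of the H2-b class I genes show how alike, and how unlike, these rows are at the level of a read. In the stretch of 50 coding bases of H2-K1 most alike among 6 expressed class I genes, H2-D1, H2-Q10 and H2-Q7 had the identical sequence, and H2-Q4 and H2-T23 differed at 1 base each. It lies in exon 4, which encodes the domain next to the membrane, at chr17:33997368-33997417 on the minus strand of GRCm38. Capitals mark bases that differ from H2-K1.
H2-K1: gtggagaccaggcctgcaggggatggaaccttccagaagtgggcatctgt
H2-D1: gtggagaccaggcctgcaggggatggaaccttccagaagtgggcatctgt
H2-Q10: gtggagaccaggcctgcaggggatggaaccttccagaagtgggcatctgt
H2-Q7: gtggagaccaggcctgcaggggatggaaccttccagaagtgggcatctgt
H2-Q4: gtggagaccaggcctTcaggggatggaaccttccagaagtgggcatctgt
H2-T23: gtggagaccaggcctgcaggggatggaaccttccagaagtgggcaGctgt
The least alike stretch of the same length in exons 2 and 3, which encode the domains that hold the peptide, lies in exon 3 at chr17:33999349-33999398 on the minus strand. There the closest stretch differed from H2-K1 at 13 bases in H2-D1, 12 in H2-Q10, 12 in H2-Q7, 11 in H2-Q4 and 21 in H2-T23. Capitals again mark the differing bases.
H2-K1: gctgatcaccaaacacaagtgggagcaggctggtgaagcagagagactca
H2-D1: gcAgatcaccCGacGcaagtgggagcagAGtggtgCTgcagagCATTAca
H2-Q10: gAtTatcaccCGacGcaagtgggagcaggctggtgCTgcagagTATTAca
H2-Q7: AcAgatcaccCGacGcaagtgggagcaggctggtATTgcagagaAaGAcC
H2-Q4: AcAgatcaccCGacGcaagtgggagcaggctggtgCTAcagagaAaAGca
H2-T23: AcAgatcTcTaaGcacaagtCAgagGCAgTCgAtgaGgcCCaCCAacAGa

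Counted over whole transcripts of GENCODE M21, 9.63% of the 50-base words of H2-K1 also occurred in another gene, against 12.8% for H2-D1, 19.1% for H2-Q10 and 14.5% for H2-T23. The other class I rows ranged from 0.576% for H2-M3 to 53.5% for H2-T22. The shares above those of the 4 were 26.5% for H2-Q7, 35.0% for H2-Q6, 36.4% for H2-Q4, 36.4% for H2-Q5, 50.4% for H2-T10 and the 53.5% of H2-T22. The values of these 6 rows are the more uncertain, because the authors' counting could have split or dropped such reads. A share of words does not measure the error of a value. Sharing with overlapping or similar genes also reached 23.2% for Tapbp, 11.9% for Psmb8, 11.6% for Tap2 and 8.43% for H2-DMa. By contrast, no 50-base word of B2m, Cd74, H2-Ab1, H2-Eb1, H2-Ea-ps or Psmb10 occurred elsewhere, and 0.51% of those of H2-Aa did. These shares are of the H2-b reference, and no H2-d sequence was used here.

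Promoters in the RefSeq table (GRCm38.p6) were searched for letters known from MHC promoters, in the 250 bases before the start and on both strands. The Y box CTGATTGG, the site of NF-Y, was held by 3.83% of all 32851 promoters. The enhancer A letters GGGGATTCC, a kappaB site, were held by 0.213%, and the interferon-stimulated response element GAANNGAAA by 6.31%. None of the 3 overlapped another in the promoters shown. Of the 30 tested genes, 20 had a promoter in the table. Enhancer A letters occurred in H2-K1, H2-D1, H2-Q6 and H2-Q7, and each of these 4 also held the response element. H2-Q10, H2-Q4 and H2-M3 held the response element without those enhancer A letters. The promoters of H2-K1 and H2-Q10 are shown because these rows stood at like levels in C57 and both were lower in BALBc, and capitals mark the matches. H2-K1 is at chr17:34000348-34000597 on the minus strand and H2-Q10 at chr17:35469839-35470088 on the plus strand.
H2-K1: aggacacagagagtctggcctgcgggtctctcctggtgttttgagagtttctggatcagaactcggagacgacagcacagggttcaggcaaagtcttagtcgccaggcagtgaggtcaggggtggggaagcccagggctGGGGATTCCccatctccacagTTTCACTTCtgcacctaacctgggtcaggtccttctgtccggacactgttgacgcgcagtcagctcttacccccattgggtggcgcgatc
H2-Q10: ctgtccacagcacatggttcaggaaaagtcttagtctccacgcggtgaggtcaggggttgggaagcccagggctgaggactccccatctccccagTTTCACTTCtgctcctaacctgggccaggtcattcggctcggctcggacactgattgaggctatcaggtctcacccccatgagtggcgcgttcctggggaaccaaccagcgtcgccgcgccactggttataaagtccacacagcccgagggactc
Among class II genes, H2-Aa and H2-Eb1 held the Y box, and H2-DMa and H2-DMb1 held none of the 3 motifs. The Y box also occurred in H2-D1, H2-Q6, H2-Q7, H2-T23, Psmb9 and Tap1. The windows of Psmb9 and Tap1 overlap, and their matches are the same bases read on opposite strands. H2-Aa is at chr17:34287824-34288073 on the minus strand and H2-Eb1 at chr17:34305617-34305866 on the plus strand, with the Y box in capitals.
H2-Aa: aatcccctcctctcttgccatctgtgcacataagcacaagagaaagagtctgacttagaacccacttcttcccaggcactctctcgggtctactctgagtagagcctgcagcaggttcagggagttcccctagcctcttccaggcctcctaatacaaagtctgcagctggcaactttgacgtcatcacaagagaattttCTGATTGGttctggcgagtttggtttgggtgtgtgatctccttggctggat
H2-Eb1: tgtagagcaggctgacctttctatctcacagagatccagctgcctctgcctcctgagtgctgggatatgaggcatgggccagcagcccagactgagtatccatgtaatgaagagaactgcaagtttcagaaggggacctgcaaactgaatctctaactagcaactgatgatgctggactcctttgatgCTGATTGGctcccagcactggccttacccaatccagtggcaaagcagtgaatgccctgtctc
A match describes letters in the C57 reference and does not show a bound factor, and a missing match says only that these letters are not in this window.

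The fragments behind the FPKM numbered 1.4892e+07 to 1.9104e+07 per library, as read from the steps of the low values. The libraries fell into 2 classes that no label gives: in 7 of them, 29.7% to 33.5% of the genes with 1 to 10 fragments had exactly 1, and in the other 8, 10.3% to 18.2% had. The first class, of 7, held all 4 C57 hyperoxia libraries and 1 library of each other group (C57 normoxia 4, BALBc normoxia 1 and BALBc hyperoxia 1). It is thus largely confounded with oxygen in C57, and with strain in hyperoxia. The 7 hepatocyte markers examined summed to at least 7.966e+04 FPKM in every library.

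These genes differed mainly by strain. In room air, 22 of the 30 rows differed between strains at an adjusted p under 0.05 in limma's moderated test, 16 of them lower and 6 higher in BALBc, which is 73.3% of the rows against 30.0% of all 13026 genes tested. By direction, 14.6% of all genes were lower and 15.4% higher in BALBc. In hyperoxia 22 rows also differed, 17 lower and 5 higher, against 23.2% of all genes, of which 11.3% were lower and 11.9% higher. The median log2 difference over the 30 rows was -0.57 in normoxia and -0.44 in hyperoxia, whereas over all genes it was 0.01 and -0.00. Psmb8 was called in normoxia alone and H2-Eb1 in hyperoxia alone. The other 21 were called in both, each in the same direction. The strains did not overlap at 22 of the 30 rows in normoxia and 20 in hyperoxia, against 30% and 32.3% of all genes. Since 6 rows (H2-K2, H2-Q2, H2-Q7, H2-T10, H2-DMb1 and H2-Ea-ps) passed the minimum through 1 strain only, they had to differ. Of the 24 rows present in both strains, 16 differed in each oxygen condition (66.7%), with 12 lower in normoxia and 13 in hyperoxia. The 30.0% and 23.2% of all genes include genes that passed the minimum through 1 strain only. They are thus not a matched share for these 24, or for the smaller counts of rows present in both strains below. With library class as a term, 22 rows were called in normoxia and 20 in hyperoxia, where H2-Q5 and Tap2 no longer passed. In hyperoxia, where class goes largely with strain, this term moved the median over the 30 rows from -0.44 to -0.63. Over all genes, 1935 were called there with the term, against 3025 without it. Within the 8 libraries of the second class 18 rows were called in normoxia, without H2-Q1, H2-Q5, Psmb8 and Tap2. Within the 7 of the first class 9 were called in normoxia, with 1 library per strain, and 15 in hyperoxia, with 1 BALBc library.

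**Figure D1:**
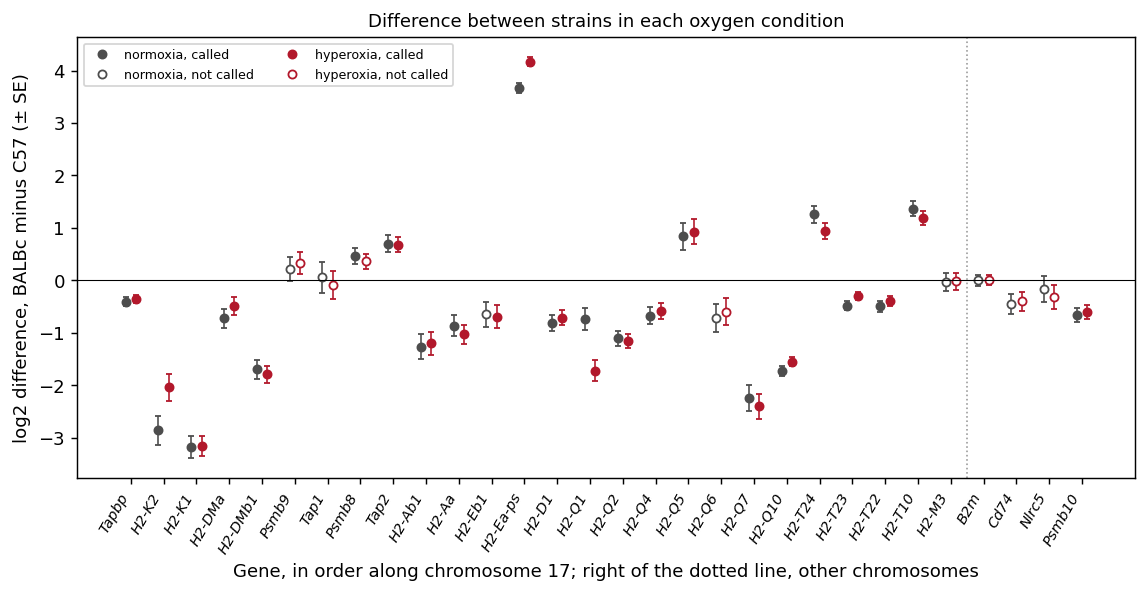
Log2 difference between strains (BALBc minus C57, on the log2(FPKM + 1) scale, with its standard error) for the 30 tested genes in normoxia (grey) and hyperoxia (red); filled points passed an adjusted p of 0.05 and open points did not. Genes are in order along chromosome 17, with B2m, Cd74, Nlrc5 and Psmb10 of other chromosomes at the right. H2-K1 lies near -3.17 in both conditions, H2-Ea-ps above 3.5, and B2m at 0.

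The 2 classical class I heavy chains, which present peptides in almost all nucleated cells, were both lower in BALBc, with the larger difference at H2-K1. H2-K1 (chr17:33996017-34000347) stood at 209.9, 179.5, 280.1 and 163 FPKM in the 4 C57 normoxia libraries and at 219, 178, 252 and 194 FPKM in C57 hyperoxia. In BALBc it stood at 20.2, 21.2 and 23.8 FPKM in normoxia and 15.8, 30.4, 20.3 and 26.8 FPKM in hyperoxia. Every C57 library was thus above 160 FPKM and every BALBc library under 31 FPKM, with no overlap. The means of 208 ± 51.8 and 21.7 ± 1.86 FPKM (SD, n = 4 and n = 3) differed 9.59-fold in normoxia, and those in hyperoxia differed 9.04-fold. On the log2(FPKM + 1) scale, which understates changes of low genes, the differences were -3.17 ± 0.21 (SE, adjusted p = 3.58e-08) and -3.15 ± 0.19 (adjusted p = 1.72e-08). The BALBc normoxia values rested on 958 to 1131 fragments per library.

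H2-D1 (chr17:35262730-35267499) stood at 164, 164, 212 and 142 FPKM in C57 normoxia and 174, 141, 206 and 157 FPKM in C57 hyperoxia. Its BALBc values were 87.1, 99.01 and 101 FPKM in normoxia and 82.02, 118, 95.7 and 119 FPKM in hyperoxia. All C57 libraries were above all BALBc libraries, but the BALBc mean was still 56.0% of that of C57 in normoxia and 61.1% in hyperoxia. The log2 differences were -0.82 ± 0.16 (adjusted p = 0.00111) and -0.71 ± 0.14 (adjusted p = 0.00239).

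Among the other class I genes, 8 of 13 were lower and 3 higher in BALBc in each oxygen condition, where 14.6% and 15.4% of all genes were lower and higher in normoxia and 11.3% and 11.9% in hyperoxia. Of the 9 present in both strains, 5 were lower and 2 higher in each condition. The most abundant was H2-Q10, which encodes a class I chain secreted by hepatocytes. H2-Q10 (chr17:35470089-35474563) stood at 213, 182, 219.6 and 211 FPKM in C57 normoxia and 186, 226, 225 and 254 FPKM in C57 hyperoxia, as high per length as H2-K1. In BALBc it stood at 62.8, 56.9 and 65.9 FPKM in normoxia and 78.3, 72.6, 77.99 and 71.6 FPKM in hyperoxia. The C57 mean was 3.34-fold higher in normoxia and 2.97-fold higher in hyperoxia, without overlap. The log2 differences of -1.72 ± 0.10 (adjusted p = 7.37e-09) and -1.55 ± 0.09 (adjusted p = 1.03e-08) both passed.

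H2-T23, which encodes Qa-1, the mouse ligand of the NKG2A receptor on natural killer cells, had the smallest estimated difference of the 4 abundant heavy chain rows. Its values were 154, 151, 149 and 167 FPKM in C57 normoxia and 161, 138, 159 and 151 FPKM in C57 hyperoxia. In BALBc they were 109, 120.2 and 104 FPKM in normoxia and 109, 130.2, 130.3 and 126 FPKM in hyperoxia. The groups did not overlap, and the log2 differences were -0.48 ± 0.08 (adjusted p = 0.000453) and -0.29 ± 0.08 (adjusted p = 0.011). H2-T22, whose product is known to bind some gamma delta T cell receptors, was at 28.8, 27.3, 34 and 24.95 FPKM in C57 normoxia and 19.9, 19.1 and 21.1 FPKM in BALBc normoxia. Its hyperoxia values were 26.4, 26.9, 28.4 and 28.6 FPKM in C57 and 18.7, 22.2, 18.8 and 23.6 FPKM in BALBc. H2-T22 did not overlap between strains in either condition, with log2 differences of -0.49 ± 0.10 (adjusted p = 0.00205) and -0.40 ± 0.09 (adjusted p = 0.00711).

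H2-Q4 was lower in every BALBc library of a condition than in any C57 library. It was at 25.97, 17.5, 25.4 and 16.8 FPKM in C57 normoxia and 11.7, 12.9 and 13.7 FPKM in BALBc normoxia. The C57 hyperoxia libraries had 19.99, 14.8, 22.2 and 21.9 FPKM and the BALBc hyperoxia libraries 12.4, 14.2, 11.5 and 12.9 FPKM. The log2 differences were -0.68 ± 0.16 (adjusted p = 0.00548) and -0.58 ± 0.15 (adjusted p = 0.011).

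Among the weakly expressed class I rows, some were near 0 in 1 strain. H2-K2, H2-Q7 and H2-Q2 passed the minimum through C57 alone and so had to differ. H2-K2, annotated as a pseudogene, was at 11.6, 14.1, 5.32 and 8.18 FPKM in C57 normoxia and 5.99, 5.68, 6.26 and 9.04 FPKM in C57 hyperoxia. In BALBc it was at 0.747, 0.618 and 0 FPKM in normoxia and 0.617, 0.713, 1.58 and 0.669 FPKM in hyperoxia, with no overlap between the strains. H2-Q7, which with H2-Q6 and others encodes the Qa-2 antigen, was at 4.39, 4.12, 8.75 and 3.05 FPKM in C57 normoxia and 6.13, 3.46, 7.67 and 4.42 FPKM in C57 hyperoxia. It was at 0.09802, 0.198 and 0.349 FPKM in BALBc normoxia and 0.177, 0.175, 0.155 and 0.195 FPKM in BALBc hyperoxia, under every C57 value. H2-Q2 was at 1.23, 1.11, 1.65 and 1.08 FPKM in C57 normoxia and 1.73, 1.46, 1.54 and 1.34 FPKM in C57 hyperoxia. Its BALBc values were 0.0958, 0.0297 and 0.0297 FPKM in normoxia and 0, 0.0858, 0.0911 and 0.351 FPKM in hyperoxia, again under every C57 value. For H2-K2, H2-Q7 and H2-Q2 in turn, the log2 differences in normoxia were -2.86 ± 0.28, -2.25 ± 0.25 and -1.10 ± 0.14, and those in hyperoxia were -2.04 ± 0.26, -2.40 ± 0.23 and -1.16 ± 0.13. H2-Q6 did not pass the test, with 6.15 to 16.6 FPKM in C57 normoxia against 5.31 to 5.94 FPKM in BALBc normoxia (log2 difference -0.71 ± 0.27, adjusted p = 0.0602). Without C57 normoxia 4 the difference was -0.92 (adjusted p = 0.0147), and without C57 hyperoxia 3 the adjusted p was 0.0493. It was -0.88 (adjusted p = 0.0748) within the second class of libraries, and -0.18 within the first, with 1 normoxia library per strain. In hyperoxia H2-Q6 did not pass either, at -0.59 ± 0.25 (adjusted p = 0.106), and its ranges overlapped.

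H2-Q5, H2-T10 and H2-T24 went the other way. H2-T10, annotated as a polymorphic pseudogene, was at 0.745, 0.886, 0.798 and 0.402 FPKM in C57 normoxia and 0.845, 0.696, 0.804 and 0.888 FPKM in C57 hyperoxia. It was higher, with no overlap, at 2.996, 4.14 and 3.103 FPKM in BALBc normoxia and 3.17, 3.85, 2.25 and 3.47 FPKM in BALBc hyperoxia. H2-T10 passed the minimum through BALBc alone and so had to differ. H2-T24 was at 1.22, 2.47, 1.903 and 1.62 FPKM in C57 normoxia against 5.58, 6.33 and 5.01 FPKM in BALBc normoxia. Under hyperoxia it had 3.14, 2.15, 1.94 and 2.93 FPKM in C57 and 6.83, 4.51, 5.403 and 6.26 FPKM in BALBc, again without overlap in either condition. Their log2 differences were 1.37 ± 0.15 and 1.26 ± 0.16 in normoxia and 1.20 ± 0.14 and 0.93 ± 0.15 in hyperoxia. H2-Q5 was at 3.12, 1.17, 2.73 and 1.44 FPKM in C57 normoxia and 3.78, 4.61 and 4.84 FPKM in BALBc normoxia, with no overlap. Its values under hyperoxia were 2.65, 1.37, 3.54 and 2.14 FPKM in C57 and 3.49, 7.44, 5.66 and 5.46 FPKM in BALBc, which overlap at their ends. It was higher in BALBc by 0.84 ± 0.26 (adjusted p = 0.0227) and 0.93 ± 0.24 (adjusted p = 0.0106) on the log2 scale, but leaving out C57 normoxia 2, C57 normoxia 4, BALBc normoxia 2 or BALBc normoxia 3 each ended the call in normoxia (adjusted p 0.0570 to 0.0764). In hyperoxia the difference was 0.59 with library class as a term (adjusted p = 0.159) and 0.43 within the 7 libraries of the first class (adjusted p = 0.455). Within the classes it did not pass in normoxia either, at 0.83 (adjusted p = 0.0771) in the 8 and 0.97 (adjusted p = 0.218) in the 7. H2-M3, which presents N-formylated bacterial peptides, lay between 1.94 and 4.24 FPKM in all libraries and did not pass in either condition (adjusted p = 0.92 and 0.965).

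H2-Q1, another weakly expressed class I row, was at 5.97, 6.38, 7.997 and 5.63 FPKM in C57 normoxia and 7.18, 8.51, 4.81 and 9.38 FPKM in C57 hyperoxia. In BALBc it was at 2.19, 4.04 and 4.48 FPKM in normoxia and 1.51, 1.46, 1.09 and 2.098 FPKM in hyperoxia, so that the hyperoxia libraries were all under the normoxia libraries. Its strain difference was -0.74 ± 0.21 in normoxia (adjusted p = 0.0162, or -0.50 with 0.0907 without BALBc normoxia 1) and -1.72 ± 0.20 in hyperoxia (adjusted p = 1.67e-05). The difference between the 2, the interaction, was -0.98 ± 0.29 and did not pass (adjusted p = 0.146).

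**Figure D2:**
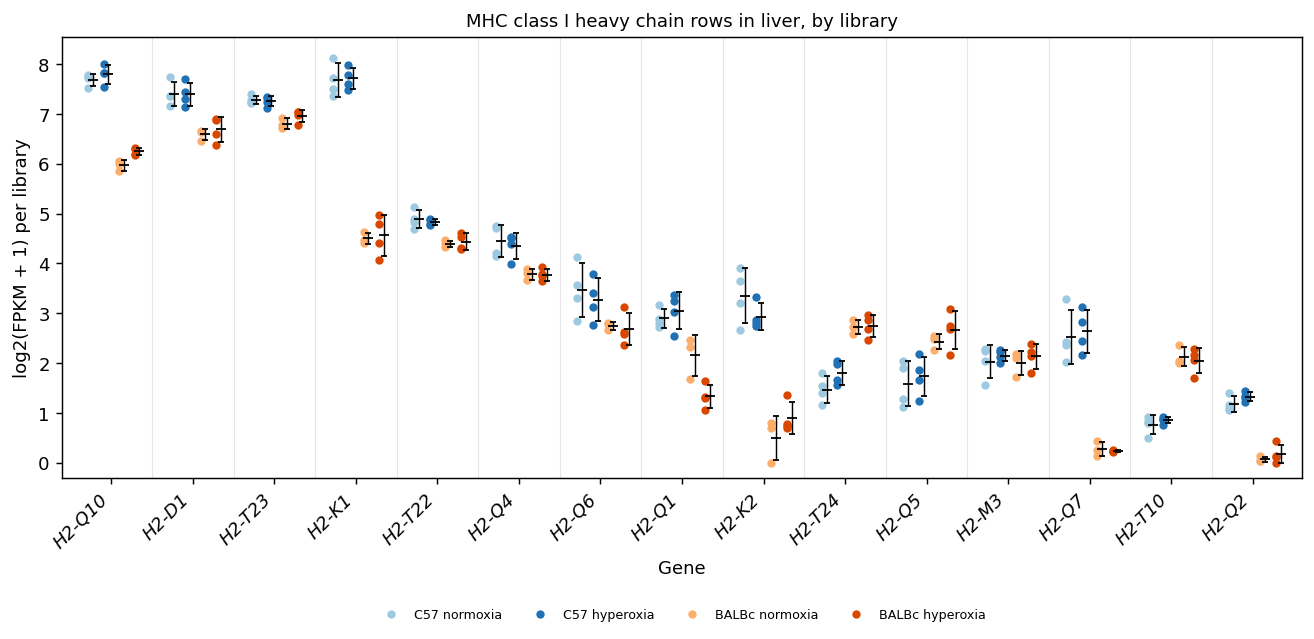
Level of each tested class I heavy chain row as log2(FPKM + 1) in each of the 15 libraries, with the mean and SD of each group drawn beside the points. The 4 groups are C57 normoxia and hyperoxia (light and dark blue) and BALBc normoxia and hyperoxia (light and dark orange). H2-K1 and H2-Q10 stand apart by strain, while H2-T10, H2-T24 and H2-Q5 are higher in BALBc.

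Summed over all class I heavy chain rows, the level was 832 ± 97.2 FPKM in C57 normoxia and 843 ± 74.1 FPKM in C57 hyperoxia (SD, n = 4 each). In BALBc it was 350.1 ± 12.6 FPKM in normoxia (SD, n = 3) and 387 ± 34.0 FPKM in hyperoxia (SD, n = 4). The light chain B2m, on chromosome 2 and shared by all class I molecules, differed between groups by less than the spread between libraries. It stood at 770.3 ± 79.1, 767 ± 53.8, 772 ± 87.5 and 774 ± 83.3 FPKM (SD) in C57 normoxia and hyperoxia and then in BALBc normoxia and hyperoxia, and the ranges overlapped. Its strain difference was 0.00 ± 0.10 in normoxia (adjusted p = 0.987) and 0.01 ± 0.10 in hyperoxia (adjusted p = 0.963). Set against B2m in the same library, the summed heavy chain rows came to 88.5% to 118.8% in C57 normoxia and 105.7% to 114% in C57 hyperoxia. In BALBc they came to 38.5% to 50.8% in normoxia and 40.3% to 57.8% in hyperoxia.

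The genes of peptide supply did not share 1 direction between strains. Tap2, a chain of the TAP transporter, was higher in BALBc. The immunoproteasome subunit Psmb8 was called higher in BALBc in normoxia only, with an estimate in the same direction in hyperoxia. The tapasin gene Tapbp and the immunoproteasome subunit Psmb10 were lower. Tap1, the other TAP chain, the subunit Psmb9 and Nlrc5, the transactivator of class I genes, did not pass.

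Tap2 was at 5.47, 4.94, 9.26 and 5.16 FPKM in C57 normoxia and 9.85, 10.1 and 11.3 FPKM in BALBc normoxia. It was at 5.81, 5.003, 5.94 and 6.62 FPKM in C57 hyperoxia and 8.58, 11.4, 9.34 and 10.6 FPKM in BALBc hyperoxia. Within each oxygen condition the strains did not overlap, though C57 normoxia 3 was above BALBc hyperoxia 1 (at 8.58 FPKM), and the log2 differences were 0.70 ± 0.16 (adjusted p = 0.00442) and 0.68 ± 0.15 (adjusted p = 0.00393). With library class as a term Tap2 passed in normoxia, at 0.72 (adjusted p = 0.00317), and not in hyperoxia, at 0.53 (adjusted p = 0.0617). Within the classes it did not pass: the normoxia difference was 0.67 (adjusted p = 0.0858) in the 8 libraries and 0.82 (adjusted p = 0.0511) in the 7, where the hyperoxia difference was 0.49 (adjusted p = 0.0893). Psmb8 had 12.01, 9.06, 12.8 and 8.21 FPKM in C57 normoxia and 16.7, 12.2 and 15.5 FPKM in BALBc normoxia, ranges that overlapped at their ends. Its log2 difference of 0.47 ± 0.16 (adjusted p = 0.0383) did not pass without C57 normoxia 2 or 4 or BALBc normoxia 1 or 3 (adjusted p 0.0879 to 0.1396), and within the 8 libraries of the second class it was 0.28 (adjusted p = 0.398). Within the 7 of the first class, with 1 library per strain, it was 0.94. In hyperoxia the strains did not overlap at Psmb8, with 9.77 to 12.7 FPKM in C57 and 13.3 to 19.2 FPKM in BALBc. The log2 difference there was 0.36 ± 0.15 and did not pass (adjusted p = 0.0939). The interaction was -0.10 ± 0.22 and did not pass (adjusted p = 0.895).

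Psmb10, which lies on chromosome 8 outside the MHC, was at 44.1, 33.1, 40.5 and 33.98 FPKM in C57 normoxia and 24.3, 22.3 and 23.8 FPKM in BALBc normoxia. In hyperoxia it was at 29.99, 31.1, 31.9 and 42.02 FPKM in C57 and 18.99, 24.2, 18.4 and 25.98 FPKM in BALBc. The strains did not overlap in either condition, with log2 differences of -0.66 ± 0.14 (adjusted p = 0.00251) and -0.60 ± 0.13 (adjusted p = 0.00354). Tapbp was at 44.1, 39.7, 41.1 and 37.9 FPKM in C57 normoxia and 28.8, 29.3 and 33.1 FPKM in BALBc normoxia. The values under hyperoxia were 37.1, 35.9, 37 and 44.2 FPKM in C57 and 27.8, 29.9, 30.9 and 30.8 FPKM in BALBc. Tapbp did not overlap between strains in either condition, and its log2 differences were -0.41 ± 0.08 and -0.36 ± 0.08 (adjusted p = 0.00185 and 0.0038).

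Tap1 and Psmb9 lie head to head within the MHC and overlap at their ends, and since the strand of the libraries is not stated, reads from that overlap cannot be told apart. Tap1 had 13.4, 3.399, 7.18 and 4.95 FPKM in C57 normoxia and 6.31, 6.54 and 7.53 FPKM in BALBc normoxia. Its log2 difference in normoxia was 0.06 ± 0.30 (adjusted p = 0.902), that of Psmb9 was 0.22 ± 0.23 (adjusted p = 0.507) and that of Nlrc5 was -0.16 ± 0.25 (adjusted p = 0.681). Psmb9 ranged from 4.99 to 11.6 FPKM in C57 normoxia and from 7.43 to 11.1 FPKM in BALBc normoxia, and Nlrc5 from 1.06 to 3.98 and from 1.54 to 2.16 FPKM. In hyperoxia Tap1 was at 8.08, 5.27, 7.82 and 10.9 FPKM in C57 and 6.84, 7.04, 6.89 and 8.404 FPKM in BALBc, and the adjusted p-values of the 3 were 0.862, 0.308 and 0.369. In C57 normoxia, library 1 or library 3 was the highest of the 4 for Tap1, Psmb9 and Nlrc5.

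**Figure D3:**
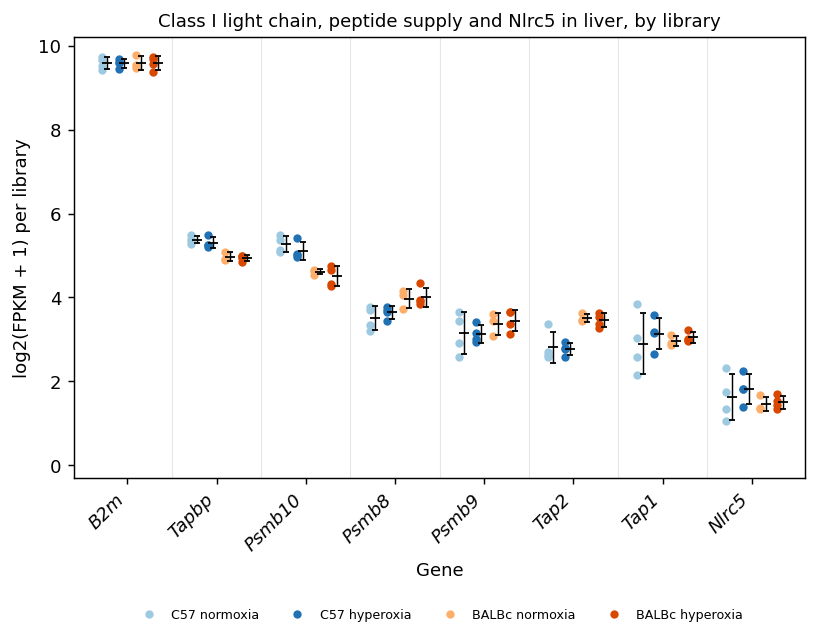
Level of the class I light chain, peptide supply genes and Nlrc5 as log2(FPKM + 1) in each of the 15 libraries, by group (C57 blue, BALBc orange; normoxia light, hyperoxia dark), with the mean and SD of each group. B2m overlaps between all groups, Tapbp and Psmb10 are lower and Tap2 is higher in BALBc, and Tap1 spreads from 3.40 to 13.4 FPKM within C57 normoxia.

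Of 7 class II rows, 4 were lower and 1 higher in BALBc in normoxia, against 14.6% and 15.4% of all genes. In hyperoxia 5 were lower and 1 higher, against 11.3% and 11.9%. Of the 5 rows present in both strains, 3 were lower in normoxia and 4 in hyperoxia, and none was higher. The higher one was H2-Ea-ps, the row of the E alpha chain, a gene known not to be transcribed in H2-b mice. Its deposited value was 0 in all 8 C57 libraries. In BALBc it was at 12.4, 11.7 and 11.1 FPKM in normoxia and 15.97, 17.1, 14.9 and 20.3 FPKM in hyperoxia, from 178 to 329 fragments per library. A count of 0 allows up to 3 fragments, which is 0.179 to 0.195 FPKM for this row in the C57 libraries, a limit that covers counting error only. The row passed the minimum through BALBc alone and so had to differ, and it separated all libraries by strain as their labels say. No fold is given against a group at 0, and the fitted standard error of 0.09 for this row draws partly on the C57 groups, which have no spread.

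The A molecule is the class II molecule that both haplotypes make. H2-Aa, its alpha chain, was at 6.53, 11.9, 8.17 and 10.7 FPKM in C57 normoxia and 4.63, 4.15 and 4.87 FPKM in BALBc normoxia. In hyperoxia it was at 14.9, 10.6, 15.5 and 13.2 FPKM in C57 and 4.12, 6.69, 5.902 and 8.21 FPKM in BALBc. The strains did not overlap in either condition, and the log2 differences were -0.86 ± 0.20 (adjusted p = 0.00445) and -1.03 ± 0.19 (adjusted p = 0.000958). H2-Ab1, the beta chain, was at 9.53, 9.405, 12.9 and 12.7 FPKM in C57 normoxia and 4.15, 2.34 and 6.32 FPKM in BALBc normoxia. In hyperoxia its values were 19.2, 14.02, 17.7 and 17.5 FPKM in C57 and 4.81, 7.997, 6.19 and 9.05 FPKM in BALBc. It too was lower in every BALBc library of a condition than in any C57 library, at -1.26 ± 0.23 (adjusted p = 0.000849) and -1.20 ± 0.22 (adjusted p = 0.000953) on the log2 scale.

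H2-Eb1, the E beta chain, overlapped between strains in normoxia, at 10.02, 15.4, 18.7 and 14.2 FPKM in C57 and 6.93, 10.1 and 9.398 FPKM in BALBc (log2 difference -0.65 ± 0.24, adjusted p = 0.0532). It passed there without C57 normoxia 1 (-0.81, adjusted p = 0.0205), BALBc hyperoxia 2 or BALBc hyperoxia 3 (adjusted p = 0.0306 and 0.0420). In hyperoxia it was at 19.2, 13.97, 19.5 and 17.9 FPKM in C57 and 7.88, 15.95, 7.33 and 12.6 FPKM in BALBc, again with overlap. There it passed at -0.69 ± 0.22 (adjusted p = 0.0344), a call that ended without any one of C57 hyperoxia 1, 3 or 4 or BALBc hyperoxia 1 or 3 (adjusted p 0.0725 to 0.1127). Cd74, the invariant chain that guides class II molecules and the most abundant class II row, was at 36.6, 25.5, 39.6 and 32.9 FPKM in C57 normoxia and 23.5, 25.6 and 22.8 FPKM in BALBc normoxia. It did not pass, at -0.45 ± 0.20 (adjusted p = 0.095) in normoxia and -0.40 ± 0.18 (adjusted p = 0.132) in hyperoxia, but without C57 normoxia 2 the first difference was -0.58 (adjusted p = 0.0389) and without C57 hyperoxia 2 the second was -0.55 (adjusted p = 0.0406).

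H2-DMa and H2-DMb1 encode chains of the DM molecule, which loads peptides onto class II. H2-DMb1 was at 2.97, 4.04, 2.96 and 1.85 FPKM in C57 normoxia and 3.68, 2.41, 3.66 and 3.46 FPKM in C57 hyperoxia. It was at 0.246, 0.0874 and 0.261 FPKM in BALBc normoxia and 0.327, 0.378, 0.0446 and 0.215 FPKM in BALBc hyperoxia, under every C57 value, whereas its near copy H2-DMb2 was at most 1.16 FPKM in any library. H2-DMb1 and H2-DMb2 share 22.7% of the 50-base words of H2-DMb1, so the 2 rows are uncertain. H2-DMb1 passed the minimum through C57 alone and so had to differ. Its log2 difference was -1.70 ± 0.18 in normoxia and -1.79 ± 0.16 in hyperoxia. H2-DMa was at 3.597, 3.32, 3.44 and 2.35 FPKM in C57 normoxia and lower, at 1.43, 1.07 and 2.17 FPKM, in BALBc normoxia, a log2 difference of -0.72 ± 0.18 (adjusted p = 0.00707). Its hyperoxia values were 4.25, 2.701, 4.21 and 4.57 FPKM in C57 and 1.81, 2.66, 2.46 and 3.11 FPKM in BALBc, which overlap, and the difference of -0.49 ± 0.17 was at the threshold (adjusted p = 0.0465), and 6 of the 8 hyperoxia libraries each ended the call when left out (adjusted p 0.0700 to 0.1362): C57 hyperoxia 1, 3 and 4, and BALBc hyperoxia 1, 2 and 3. So did C57 normoxia 2, C57 normoxia 3 and BALBc normoxia 1, which enter only the estimate of spread (adjusted p 0.0505 to 0.0569). Ciita, the transactivator of class II genes, was below the minimum, at 0.124 to 0.408 FPKM across all libraries.

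**Figure D4:**
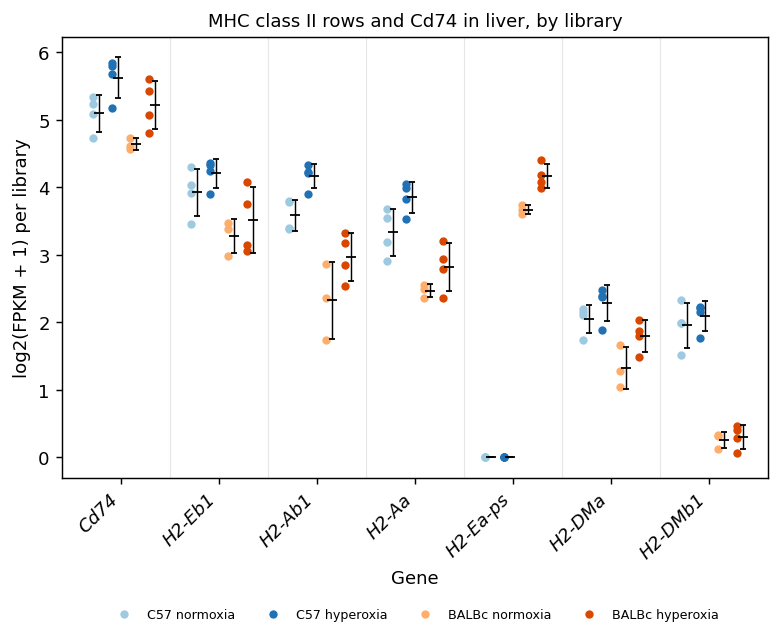
Level of the 7 tested class II rows as log2(FPKM + 1) in each of the 15 libraries, by group (C57 blue, BALBc orange; normoxia light, hyperoxia dark), with the mean and SD of each group. H2-Ea-ps is at 0 in all 8 C57 libraries and at 11.1 to 20.3 FPKM in BALBc, while H2-Aa, H2-Ab1 and H2-DMb1 are lower in BALBc.

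Markers of macrophages and B cells, which make class II, were lower in BALBc as well, and no tested dendritic cell marker was called. In a bulk tissue, fewer cells of a type and less RNA per cell cannot be told apart. Of 12 Kupffer cell and macrophage markers, 11 were lower in BALBc in each oxygen condition and none was higher. Over all genes, 14.6% were lower and 15.4% higher in normoxia, and 11.3% were lower and 11.9% higher in hyperoxia. Summed, these 12 came to 825 to 1263 FPKM in C57 normoxia and 554 to 675 FPKM in C57 hyperoxia, against 305 to 349.6 FPKM in BALBc normoxia and 284 to 365 FPKM in BALBc hyperoxia. Of 5 tested B cell markers, 3 were lower in normoxia and 4 in hyperoxia. All 7 B cell markers listed summed to 21.4 to 41.1 and 27.6 to 36.0 FPKM in the C57 groups and to 17.2 to 19.8 and 19.3 to 23.9 FPKM in the BALBc groups, in the order normoxia and hyperoxia. Dendritic cell markers (8 listed, 3 tested, none called) summed to 5.69 to 11.2 and 5.96 to 8.30 FPKM in C57 and to 3.25 to 4.34 and 3.53 to 5.34 FPKM in BALBc. Of 3 general leukocyte markers, 2 were lower in each condition. Of 3 tested T and NK cell markers 1 was lower in normoxia, and of 7 endothelial markers 1 was higher in each condition and 1 lower in normoxia. These are 33.3% and 28.6% of the T and NK cell and endothelial lists in normoxia, near the 30.0% of all genes. In hyperoxia none and 14.3% were called, against 23.2% of all genes. No marker of these lists was at 0 throughout a group. Their part in the class II differences was not tested.

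Other genes of the pathway, outside the named set, were also mixed. Of 28 processing partners, 3 were higher and 9 lower in BALBc in each condition (42.9%, against 30.0% of all genes in normoxia and 23.2% in hyperoxia). Their median log2 difference was -0.21 in normoxia and -0.17 in hyperoxia, and over all genes it was 0.01 and -0.00. The lower ones included Ifi30, the lysosomal thiol reductase of class II processing, at -1.24 and -0.81 in the 2 conditions. Ctss, the protease that trims the invariant chain, was lower at -0.88 and -0.80 on the log2 scale. Hfe, a class I-like regulator of iron uptake, was lower at -0.99 and -0.81, and Spi1, a transcription factor of macrophages and B cells, at -1.01 and -0.75. Mr1, which presents vitamin B metabolites to mucosal T cells, was higher by 0.94 and 0.51. Of 24 interferon-induced genes tested, 5 were higher and 2 lower in normoxia, and 2 were higher and 3 lower in hyperoxia. These are 29.2% and 20.8% of the list, near the 30.0% and 23.2% of all genes. Cxcl9 (0.76 and 0.61) and Ifi44 (0.93 and 0.61) were higher in both conditions, and Cxcl10 (-0.85 and -0.89) and Ifi47 (-0.70 and -0.75) were lower in both.

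The other genes of the MHC region were called at about the share of all genes. The outermost H2 rows span chr17:33974659-37483552, which holds 269 further genes without membership, of which 86 were tested. Of these neighbours, 8 were higher and 17 lower in BALBc in normoxia (29.1%), and 9 were higher and 9 lower in hyperoxia (20.9%), near the 30.0% and 23.2% of all genes. Their median log2 difference was -0.08 in normoxia and -0.03 in hyperoxia.

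Few of these genes were called between oxygen conditions in either strain. In C57 no row of the 30 was called in limma's test, against 0.937% of all genes, and 4 rows had an unadjusted p under 0.05, all of them higher in hyperoxia (14.2% of all genes had such a p). In BALBc 1 row was called, higher in hyperoxia, against 0.944% of all genes and 0.407% higher, and 6 had an unadjusted p under 0.05, of which 5 were higher (12.4% of all genes). In the interaction no row was called, against 0.821% of all genes, and 3 had an unadjusted p under 0.05 (12.7% of all genes). The strain comparisons and these comparisons use the same libraries.

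The row called in BALBc was H2-Ea-ps, the E alpha chain, which rose from a mean of 11.8 ± 0.645 to 17.1 ± 2.34 FPKM (SD, n = 3 and n = 4). Every hyperoxia library was above every normoxia library, and the log2 difference was 0.49 ± 0.09 (adjusted p = 0.0195). With only the 2 BALBc groups in the fit, and so without the C57 groups at 0, the adjusted p was 0.0896. It also missed the threshold without BALBc normoxia 2 or 3 or BALBc hyperoxia 2 or 4 (adjusted p 0.0567 to 0.1196).

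Among class II rows the estimates for hyperoxia were above 0 for 6 of 7 in C57, where H2-Ea-ps was at 0. In BALBc they were above 0 for 7 of 7. Over all genes, 50.6% were above 0 in C57 and 50.2% in BALBc. The medians of the class II rows were 0.28 and 0.47 on the log2 scale, against 0.00 and 0.00 over all genes. The 3 largest in C57 did not pass: H2-Ab1 at 0.58 ± 0.22 (adjusted p = 0.223), Cd74 at 0.53 ± 0.18 (adjusted p = 0.189) and H2-Aa at 0.52 ± 0.19 (adjusted p = 0.209). In BALBc, H2-Ab1 at 0.65 ± 0.23 (adjusted p = 0.243), Cd74 at 0.58 ± 0.20 (adjusted p = 0.204) and H2-DMa at 0.47 ± 0.18 (adjusted p = 0.276) did not pass either. In the same order, these BALBc estimates were 0.81, 0.71 and 0.55 within the second class of libraries. Within the first class, with 1 BALBc library per oxygen condition, they were 0.17, 0.19 and 0.21. Cd74 had 54.4, 35.3, 56.5 and 50.3 FPKM in C57 hyperoxia, where library 2 lay within the normoxia range and the other 3 above it, and 27.02, 41.9, 32.5 and 47.7 FPKM in BALBc hyperoxia, all above the 3 normoxia values. H2-Ab1 in C57 was the single row of the 30 whose oxygen groups did not overlap there, against 7.88% of all genes. In BALBc 4 rows did not overlap between oxygen conditions, against 13.6% of all genes.

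In the same C57 comparison 25% of the 12 Kupffer cell and macrophage markers were called, against 0.937% of all genes. Marco (-2.21) and Lyz2 (-1.26) fell and Clec4f rose (0.44). The median over the 12 was -0.37, with 3 above 0. Library class is nearly the same split as oxygen in C57. No B cell or dendritic cell marker was called in either strain. The part of all these markers in the class II values was not tested. Of the processing partners, Ifi30 fell in C57 by 0.58 on the log2 scale (adjusted p = 0.0300), and of the interferon-induced genes Irf7 rose by 0.69 (adjusted p = 0.0284). No gene of either list was called in BALBc.

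No class I heavy chain passed the test between oxygen conditions. H2-K1 differed between oxygen conditions by 0.04 ± 0.19 in C57 and 0.06 ± 0.21 in BALBc, and H2-D1 by -0.01 ± 0.14 and 0.10 ± 0.16, all within the spread of the libraries. H2-Q10 was at 0.11 ± 0.09 in C57 and at 0.28 ± 0.10 in BALBc, where the ranges did not overlap but the adjusted p was 0.227. The lowest estimate was that of H2-Q1 in BALBc, -0.82 ± 0.21 (adjusted p = 0.0899), and without BALBc normoxia 1 it passed at -1.06 (adjusted p = 0.0264). Within the second class of libraries it was also -1.06 but did not pass (adjusted p = 0.12). Within the first class, with 1 BALBc library per oxygen condition, it was -0.35. B2m differed by -0.00 ± 0.10 and 0.00 ± 0.10. Library class, which is nearly the same split as oxygen in C57, bears on these values: with class as a term, the median over the 30 rows in C57 was 0.23 in place of 0.11, with 27 in place of 18 rows above 0, and still none was called.

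**Figure D5:**
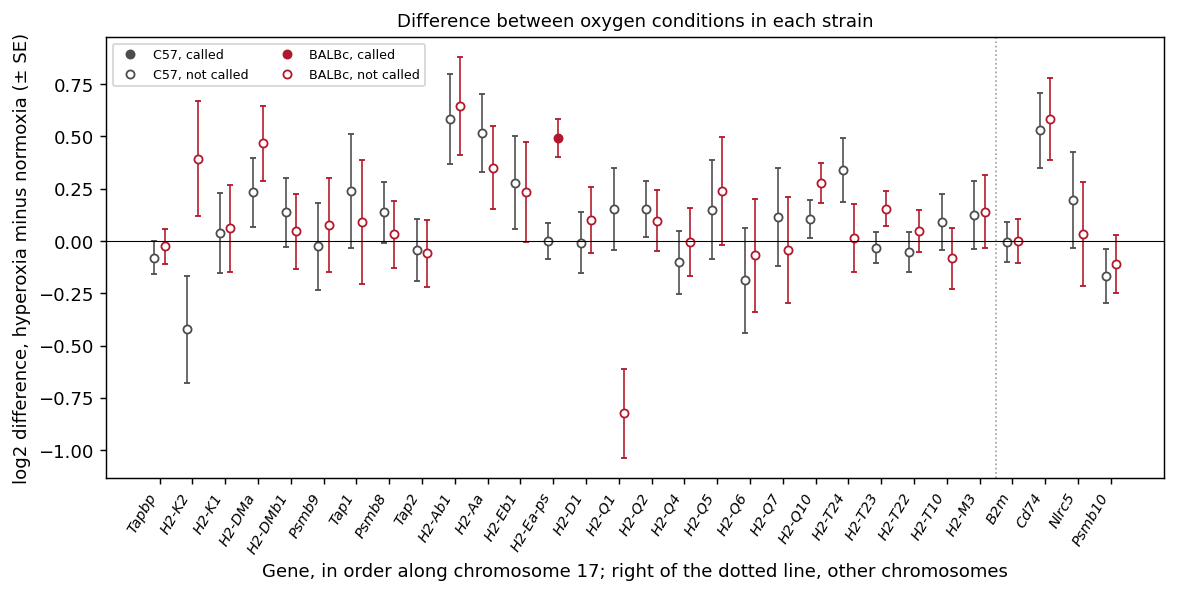
Log2 difference between oxygen conditions (hyperoxia minus normoxia, on the log2(FPKM + 1) scale, with its standard error) for the 30 tested genes in C57 (grey) and BALBc (red); filled points passed an adjusted p of 0.05 and open points did not. H2-Ea-ps in BALBc, at 0.49, is the single filled point, and Cd74 and H2-Ab1 lie above 0.5 in both strains without passing.

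The 25 rows below the minimum comprised 17 class I rows, 7 class II rows and H2-Ke6. Of these, 12 had a deposited value of 0 in every library: H2-M1, H2-M9, H2-M11, H2-M10.1 to H2-M10.5, H2-M10.5-ps1, H2-Q3, H2-Pa and H2-Pb. Most of the M10 genes are known from sensory neurons of the vomeronasal organ. Just inside the minimum were H2-Q2, with at least 1 FPKM in 8 libraries and at most 1.73 FPKM, and H2-T10, with at least 1 FPKM in 7. Just outside were H2-T-ps, with 2 libraries at 1.92 and 1.97 FPKM, and the class II rows H2-DMb2, H2-Oa and H2-Ob, each with 1 library above 1 FPKM (at 1.16, 1.18 and 1.01 FPKM). H2-Oa and H2-Ob encode the DO molecule, an inhibitor of DM found mainly in B cells.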

How the data were processed

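Liver RNA was extracted with TRIzol and made into libraries with the NEBNext Ultra II kit, per the labels' protocols. Alignment with HISAT2 2.0.5, counting with featureCounts 1.5.0-p3 and the GRCm38 (mm10) build are listed in the submitters' processing notes, and the order of steps, strandedness and handling of multiply mapped reads are not given in the sources used here. The authors deposited FPKM per gene and library, per the file headers, and raw reads were not used here. From the deposited FPKM, low values in steps of 1 fragment gave the depth of each library in fragments. Among values under 25 fragments, 98.3% to 98.8% were within 0.05 of a whole number. Gene identifiers were matched to GENCODE M21, 54495 with and 37 without a match.

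The 13026 genes at or above 1 FPKM in 3 or more libraries were taken to log2(FPKM + 1). They entered 1 limma fit (version 3.58.1, R 4.3.3) of all 15 libraries, with a mean for each group, moderated variances and a trend of variance on level. P-values were adjusted by Benjamini-Hochberg over all genes within each of 5 comparisons: oxygen in each strain, the interaction, and strain in each oxygen condition. FPKM are not counts, so no count model was run. The fit was tested on simulated data with known changes.

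All 30 genes of the rule past the minimum were described, with the value in every library of each condition in which the strains differed, and the other rows by values, means or ranges. The genes and the other lists were chosen with earlier results of these data known. Replicate numbers are shared between groups, but of 21 same-numbered pairs 1 had deviations correlated above 0.1, so the libraries were treated as unpaired. The alternatives changed 1 choice at a time: the pseudocount (0.1), the minimum (none, or 5 FPKM), the scaling (by medians or quantiles), the variance trend (none), added terms (replicate number as a block, or library class), and the libraries fitted (1 class, the groups compared, or all but 1). Promoters came from RefSeq (GRCm38.p6) and transcripts from GENCODE M21 (GRCm38). Tables and figures were made with pandas 2.3.3, numpy 2.4.6 and matplotlib 3.10.9 under Python 3.11.15.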

Additional observations from a re-analysis of the deposited data

Results flagged for a closer look

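In groups of 4 libraries, 7 of 88 combinations of gene and group held 1 library far from the other 3 by Dixon's test of the gap against the range, and chance gives about 1 in 20. H2-K2 was at 1.578 FPKM in BALBc hyperoxia 3, against 0.617 to 0.713 FPKM in the other 3 libraries. Tap2 was at 9.262 FPKM in C57 normoxia 3, against 4.94 to 5.47 FPKM. C57 hyperoxia 4 was the highest of its group for Psmb10 (42.02 FPKM, against 29.99 to 31.9) and for Tapbp (44.21 FPKM, against 35.9 to 37.1). BALBc hyperoxia 4 was the highest of its group for Psmb8 (19.2 FPKM, against 13.3 to 14.2) and for Tap1 (8.404 FPKM, against 6.84 to 7.04). H2-DMb1 was at 2.405 FPKM in C57 hyperoxia 2, the lowest of its group, against 3.46 to 3.68 FPKM. Of these 7, 5 were in genes of peptide supply.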

How the results depend on the processing

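The number of genes called between strains was 22 in each oxygen condition, and it ranged from 20 to 23 in both when each library was left out in turn. In normoxia it was 9 within the 7 libraries of the first class, where each strain has 1 library, and 18 within the 8 of the second. In hyperoxia it was 15 within the 7 and 18 with a filter at 5 FPKM. In the other settings it was 20 to 23. Of the 44 strain calls, 22 held in every alternative run and 39 held whichever library was left out. These counts include the calls of the 6 rows that passed the minimum through 1 strain only. Those rows had to differ, so their calls say nothing on how well the results hold. For 61 combinations of gene and comparison, 1546 alternatives were rechecked, of which 67 lost a call and 12 gained one. None of the 61 changed sign. They were chosen as called or as having the larger estimates, so a change of sign was unlikely from the start. In BALBc the single call between oxygen conditions, H2-Ea-ps, fell to 0 calls with a pseudocount of 0.1, with a filter at 5 FPKM, in the 8 libraries of the second class, in the 7 of the first and with only the groups compared. Leaving out 1 library gave 0 to 2 calls there, and the second was H2-Q1 without BALBc normoxia 1. Under quantile normalization the interaction gave 1 call, H2-Ea-ps (adjusted p = 0.0368), in place of 0. With the replicate number as a block, BALBc had 0 calls (H2-Ea-ps at an adjusted p of 0.0504), and the strain comparisons had 22 and 21. The numbers were not taken to pair the libraries, since 4 of 15 correlated best with their own number. The cause of these moves was not tested. The second class held no C57 hyperoxia library, so it gave no value for hyperoxia between strains, for C57 or for the interaction. Rows near 1 FPKM rest on few fragments, and their log2 differences are understated.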
